A study of Homo sapiens with 4 samples.

Results

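The 9 genes described here act on the proteolysis of the extracellular matrix: the tissue inhibitors of metalloproteinases TIMP1, TIMP2 and TIMP3, the membrane-anchored inhibitor RECK, urokinase (PLAU), its receptor PLAUR, tissue plasminogen activator (PLAT), and the serine protease inhibitors SERPINE2 and SLPI. They were taken by gene symbol from a table of 13165 genes. The table lists 8 of them, and TIMP3 is not listed. RNA was sequenced from TPC1, an established cell line derived from a human papillary thyroid carcinoma, with 2 libraries for each of 2 groups. TPC1-Vector cells carried the empty expression vector, and TPC1-INAVA cells carried the vector expressing INAVA (innate immunity activator, older symbol C1orf106). Both were stable lines selected with 0.5 μg/mL puromycin for 2 weeks, and the control cells therefore share the vector and the selection. The labels speak of transfection and the study's methods of retroviral infection, each group is 1 selected line, and nothing says that its libraries came from separate cultures. The INAVA comparison addresses which genes of invasion and metastasis differ when INAVA is overexpressed.

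Matrix metalloproteinases cut collagens and other matrix proteins, and TIMPs bind their active sites. Urokinase and tissue plasminogen activator convert plasminogen to plasmin, a broad serine protease that cuts fibrin and can activate metalloproteinase precursors. Urokinase does so mostly at the cell surface, held by its receptor, and serpins such as SERPINE2 end the reaction by trapping the enzyme. In carcinomas, urokinase and its receptor are well known for their part in invasion, and TIMP1 is also known as a secreted factor that signals through cell surface partners.

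For each gene and group the authors deposited 1 value in FPKM (fragments scaled to transcript length and sequencing depth), in which both libraries of that group were pooled. No value has an SD, no difference between the groups has a replicate check, and no test could be made. A difference carried by 1 of the 2 libraries of a group could not be seen. The number of reads is unknown, and in RNA from whole cultures fewer cells that express a gene cannot be told apart from less RNA per cell. Fold changes were taken as differences of log2(FPKM + 0.5), TPC1-INAVA minus TPC1-Vector, which understates the difference of weakly expressed genes. Genes whose group values averaged 0.5 FPKM or more were kept (12305 genes, all 8 listed genes among them), and a gene was counted as higher or lower when the difference reached 1.5-fold (0.58 on the log2 scale). INAVA itself stood at 7.96 FPKM in the vector cells and 123 FPKM in the INAVA cells. The thyroid transcription factor PAX8 was at 60.1 and 55.7 FPKM and FOXE1 at 5.26 and 5.89 FPKM, while the other 6 of 8 thyroid follicular markers, thyroglobulin (TG) among them, are not listed.

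The set split. SLPI, PLAT, TIMP1 and PLAUR were at least 1.5-fold higher in TPC1-INAVA, and no listed gene of the set was 1.5-fold lower. SLPI, at 0.162 FPKM in TPC1-Vector, passed the filter only through its INAVA value. The genes were chosen with earlier results of these data known. Over all genes kept, 276 of 12305 (2.24%) were at least 1.5-fold higher and 179 (1.45%) at least 1.5-fold lower. TIMP2 and PLAU were lower by less than that, and RECK and SERPINE2 were close to level. The median log2 fold change of the 8 genes was 0.29, against 0.0033 over all genes kept, but 4 genes were above 0 and 4 below, so the median describes neither side of the set.

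**Figure D1:**
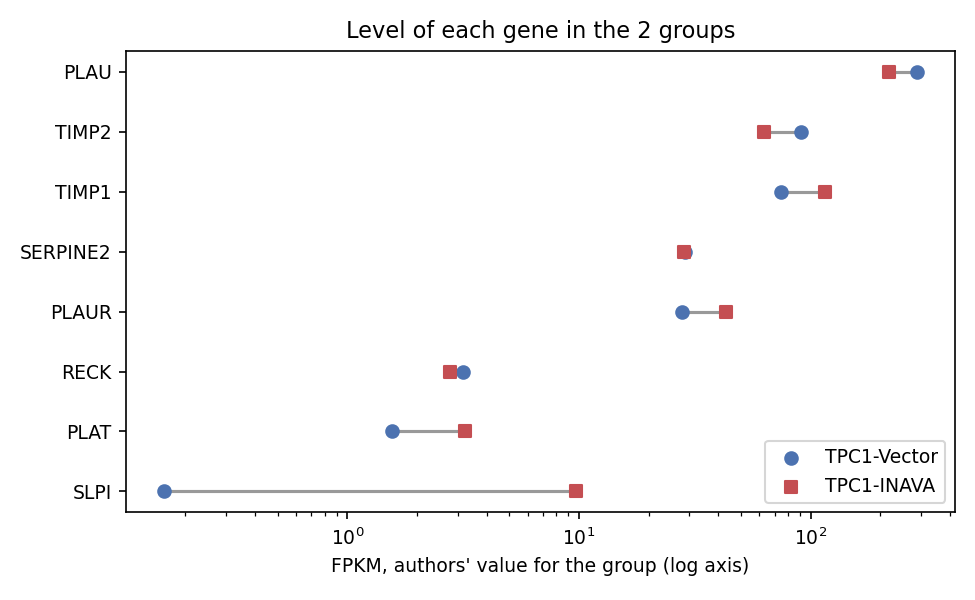
Level of the 8 listed genes in FPKM (log axis), with a circle for TPC1-Vector and a square for TPC1-INAVA, each the authors' single value for the group and without error bars. SLPI stands at 0.162 and 9.74 FPKM, TIMP1 and TIMP2 are in opposite order in the groups, and the symbols of SERPINE2 overlap.

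Levels in FPKM are per length of transcript and can be set beside each other. In TPC1-Vector the order from high to low was PLAU, TIMP2, TIMP1, SERPINE2, PLAUR, RECK, PLAT and SLPI. In TPC1-INAVA it was PLAU, TIMP1, TIMP2, PLAUR, SERPINE2, SLPI, PLAT and RECK. Without replicate values it cannot be said which neighbours in either order differ beyond their spread. SERPINE2 and PLAUR, at 28.8 and 27.9 FPKM, stood close together in the vector group. PLAU was above 97.7% of all genes of the table in TPC1-INAVA and above 98.5% in TPC1-Vector.

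TIMP1, a secreted inhibitor that also binds the precursor of MMP9, was at 74.7 FPKM in the vector cells and 116 FPKM in the INAVA cells. This is a ratio of 1.55 and a log2 fold change of 0.63, rank 229 from the top of the 12305 genes kept. TIMP2, which inhibits metalloproteinases and, together with the membrane protease MMP14, also takes part in the activation of the MMP2 precursor, differed the other way, at 91.0 and 63.0 FPKM. It was 1.45-fold lower, a log2 fold change of -0.53, rank 241 from the bottom. The summed level of TIMP1 and TIMP2 was nearly the same in the groups, at 166 and 179 FPKM, whereas the share of TIMP2 in the sum was 54.9% in TPC1-Vector and 35.2% in TPC1-INAVA. The ratio of TIMP1 to TIMP2 was 0.821 in the vector group and 1.84 in the INAVA group, a 2.24-fold difference of the ratio. TIMP2 was thus the more abundant of the pair in the vector cells and TIMP1 in the INAVA cells. RECK, which inhibits metalloproteinases from its anchor in the membrane, was at 3.15 and 2.78 FPKM, a log2 fold change of -0.15.

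TIMPs and RECK hold some members of the metalloproteinase and ADAM families. A list of 18 proteases of these families was compared, of which 12 were listed and kept. Which enzymes of the list these inhibitors hold was not tested. The gelatinase MMP9 (0.188 and 1.495 FPKM) and the collagenase MMP1 (0.354 and 1.28 FPKM) were at least 1.5-fold higher, and none was 1.5-fold lower. Over all genes kept, 2.24% were at least 1.5-fold higher and 1.45% lower. The median log2 fold change of the list was 0.25. MMP9 and MMP1 passed the filter only through their INAVA value. Neither is kept at a mean of 1 FPKM, where no gene of this list reached 1.5-fold. The most abundant enzymes were ADAM9 (114 and 120 FPKM), MMP14 (65.5 and 83.7 FPKM) and ADAM15 (45.5 and 43.3 FPKM), none of them past 1.5-fold. ADAM9 is placed on an alternate contig of chromosome 8, where reads may be divided with the main copy of the gene. MMP14, with a log2 fold change of 0.35, lay just above the range that holds the central 90% of genes of like level (-0.26 to 0.34), and ADAM10 (48.2 and 38.0 FPKM), with -0.34, just below that of its own level (-0.32 to 0.32). Relative to TIMP2, MMP14 was at 0.719 in TPC1-Vector and 1.33 in TPC1-INAVA, and MMP2, itself at 8.42 and 10.7 FPKM, was at 0.0925 and 0.169. Relative to TIMP1, MMP9 was at 0.0025 in TPC1-Vector and 0.0129 in TPC1-INAVA, so the TIMP1 transcript was the far more abundant one in both groups.

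In the plasminogen activation system, urokinase and its receptor differed in opposite directions. PLAU was the most abundant gene of the set in both groups, at 288 FPKM in the vector cells and 218 FPKM in the INAVA cells, 1.32-fold lower with a log2 fold change of -0.40. PLAUR, the receptor that holds urokinase on the membrane, was at 27.9 and 42.9 FPKM, a ratio of 1.54 and a log2 fold change of 0.62. There were 10.3 PLAU transcripts for each PLAUR transcript, by FPKM, in the vector group and 5.08 in the INAVA group. PLAT, which activates plasminogen mainly on fibrin, was at 1.56 and 3.22 FPKM. Its ratio was 2.06, and its log2 fold change with 0.5 added was 0.85. PLAT made up 0.540% of the summed FPKM of both activators in TPC1-Vector and 1.46% in TPC1-INAVA, so the sum followed PLAU, at 290 and 221 FPKM.

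SERPINE2 (protease nexin-1), which traps thrombin, urokinase and plasmin, was at 28.8 FPKM in the vector cells and 28.3 FPKM in the INAVA cells, a log2 fold change of -0.026. PLAU was 10.01 times as abundant as SERPINE2 in TPC1-Vector and 7.71 times in TPC1-INAVA. In a list of 20 further genes of the plasminogen system, 10 were listed and kept. None of the 10 reached 1.5-fold in either direction. Over all genes kept, 2.24% were at least 1.5-fold higher and 1.45% lower, so few such genes could be looked for among 10. Of the 10, 8 were above 0, beside 50.8% of all genes kept, and the median was 0.15. SERPINI1 (0.508 and 0.937 FPKM), with a log2 fold change of 0.51, had the largest difference. The plasminogen-binding surface proteins enolase (ENO1, 2097 and 1972 FPKM), annexin A2 (ANXA2, 1315 and 1523 FPKM) and its partner S100A10 (350 and 355 FPKM) were the most abundant of them. Plasminogen itself (PLG) is not listed.

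SLPI, a small secreted inhibitor of neutrophil elastase and cathepsin G found in mucosal fluids, had the widest difference of the set. It was at 0.162 FPKM in TPC1-Vector, below all but 0.623% of the genes in the table, and at 9.74 FPKM in TPC1-INAVA, above 49.3% of them. The ratio was 60.2 and the log2 fold change 3.95. Of the 12305 genes kept, it ranked 3 from the top, after RNVU1-4 and RNVU1-20, small nuclear RNA genes listed at 0 in TPC1-Vector. INAVA itself followed at 3.86, but with 1 added to the FPKM values INAVA (3.78) ranked 3 and SLPI (3.21) ranked 4. The size of this difference rests on a vector value near the bottom of the scale. The log2 fold change was 5.91 with nothing added to the FPKM values, 5.23 with 0.1 added and 3.21 with 1 added. The 1 annotated SLPI transcript has 596 nucleotides, and a low FPKM of so short a transcript stands for few fragments, although how many is unknown here. SLPI made up 0.0817% of the summed FPKM of the 5 listed inhibitors in TPC1-Vector and 4.43% in TPC1-INAVA. Of 13 serine proteases listed as possible targets of SLPI and SERPINE2, PRSS23 is the only one listed, at 55.1 and 55.5 FPKM, and the neutrophil enzymes ELANE and CTSG are not.

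**Figure D2:**
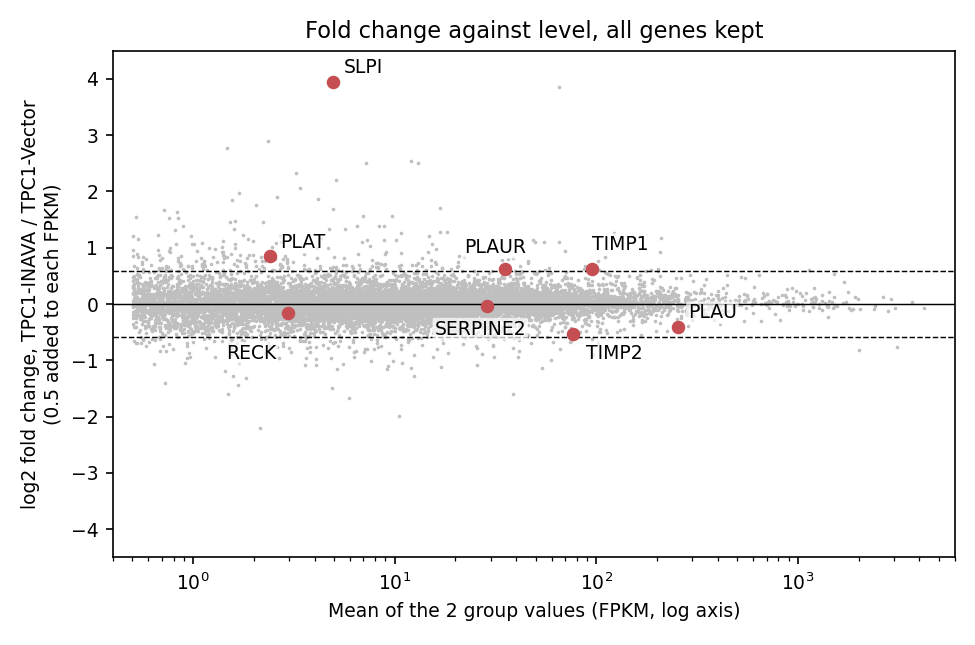
Log2 fold change, TPC1-INAVA over TPC1-Vector with 0.5 added to each FPKM, against the mean of the group values (FPKM, log axis) for the genes kept (grey points, 4 of 12305 outside the axis), with the 8 genes in red and dashed lines at 1.5-fold. SLPI stands at 3.95, and TIMP1, TIMP2, PLAUR and PLAU lie at the edge of the narrow band formed by strongly expressed genes.

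Because the spread of fold changes narrows with level, each gene was also set beside genes of like level. Of the 8 genes, 6 lay outside the range that holds the central 90% of genes in their level class, 4 above it and 2 below. The genes were chosen with earlier results of these data known, so this count is a description only. SLPI is in its level class only through its INAVA value. For genes with a mean of 50 to 100 FPKM, this range ran from -0.26 to 0.34, with TIMP1 at 0.63 above it and TIMP2 at -0.53 below it. For genes of 20 to 50 FPKM it ran from -0.32 to 0.32, with PLAUR at 0.62 above it and SERPINE2 at -0.026 within it. From 100 FPKM upward it ran from -0.26 to 0.38, with PLAU at -0.40 below it. For genes of 0.5 to 5 FPKM it was wider, from -0.46 to 0.53, with PLAT at 0.85 and SLPI above it and RECK at -0.15 within it. In that last class 4.43% of 3721 genes were at least 1.5-fold higher, against 0.859% of 2444 genes at 20 to 50 FPKM and 1.15% of 953 genes at 50 to 100 FPKM.

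The promoters of PLAUR and TIMP1, which were higher by a similar amount, and of PLAU, which was lower, are shown from RefSeq (GRCh38.p14, 250 bases before to 50 after the annotated start). Of the 9 genes, 6 had an entry there, and the 5 of them that are listed in the expression table have 7 promoters. SLPI, TIMP2 and PLAT have none. Capitals mark AP-1 sites (TGANTCA) and GC boxes (GGGCGG), on either strand.
PLAUR, chr19:43670120-43670419, minus strand: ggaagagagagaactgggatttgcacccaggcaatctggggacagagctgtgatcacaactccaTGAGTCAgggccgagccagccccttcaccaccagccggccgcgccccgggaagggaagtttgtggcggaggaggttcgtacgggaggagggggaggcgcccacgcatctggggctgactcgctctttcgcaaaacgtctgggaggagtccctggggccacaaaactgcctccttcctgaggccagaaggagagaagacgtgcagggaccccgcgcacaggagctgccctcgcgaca
TIMP1, chrX:47582186-47582485, plus strand: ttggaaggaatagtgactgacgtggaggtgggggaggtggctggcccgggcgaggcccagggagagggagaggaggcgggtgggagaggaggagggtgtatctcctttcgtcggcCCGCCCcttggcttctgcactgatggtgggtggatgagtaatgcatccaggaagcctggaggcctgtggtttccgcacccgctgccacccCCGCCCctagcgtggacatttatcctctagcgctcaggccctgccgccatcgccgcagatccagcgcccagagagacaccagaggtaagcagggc
PLAU, chr10:73910882-73911181, plus strand: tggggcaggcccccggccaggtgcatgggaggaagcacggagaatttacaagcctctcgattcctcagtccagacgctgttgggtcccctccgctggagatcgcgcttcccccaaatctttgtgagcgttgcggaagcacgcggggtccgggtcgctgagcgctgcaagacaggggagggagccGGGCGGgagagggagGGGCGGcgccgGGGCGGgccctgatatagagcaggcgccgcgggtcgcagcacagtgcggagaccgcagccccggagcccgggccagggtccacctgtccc

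The PLAUR window holds 1 AP-1 site, which begins 186 bases before the start and reads as such on both strands. It was the single exact AP-1 match in the 7 promoters, and 7.71% of all 35116 RefSeq promoters hold one. The TIMP1 window holds 2 GC boxes on the minus strand and the PLAU window shown holds 3 on the plus strand. GC boxes were found in 5 of the 7 promoters, at 11 places, and in 45.0% of all promoters. A TATA box (TATAAA, in 11.5% of all promoters) and the NF-κB site (5.91%) were in 0 of the 7. By exact letters, the PLAUR and TIMP1 windows shared none of the motifs searched, and the TIMP1 window and the PLAU window shown both held GC boxes. Near matches, such as tgagtaa in the TIMP1 window, were not counted. The other PLAU promoter held 0 GC boxes, and which promoter TPC1 uses was not tested. A match of letters is a description and does not show that a factor binds there.

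Chromosomal position was examined for each gene, because most genes around PLAU and around SLPI differed in 1 direction. Positions are on hg38 as deposited, and neighbours are other genes within 2 Mb whose group values averaged 1 FPKM or more. PLAU (chromosome 10, 73909969 to 73922777) lay among genes that were lower. Of its 37 neighbours 35 were below 0, their median log2 fold change was -0.31, and PLAU differed from it by only -0.089, with 22 neighbours higher than PLAU and 15 lower. SLPI (chromosome 20, 45252239 to 45254564) lay among genes that were higher. Of its 38 neighbours 33 were above 0, with a median of 0.33, and SLPI exceeded the median by 3.62 and exceeded each of the 38. Among them, the syndecan SDC4 was at 93.4 and 136 FPKM and the kinase STK4 at 17.5 and 20.9 FPKM. MMP9 (chromosome 20, 46008908 to 46016561), with a log2 fold change of 1.54, also lies within 2 Mb of SLPI. It averaged under 1 FPKM and is therefore not counted as a neighbour. The part that these regions have in the values of PLAU, SLPI and MMP9 was not tested.

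**Figure D3:**
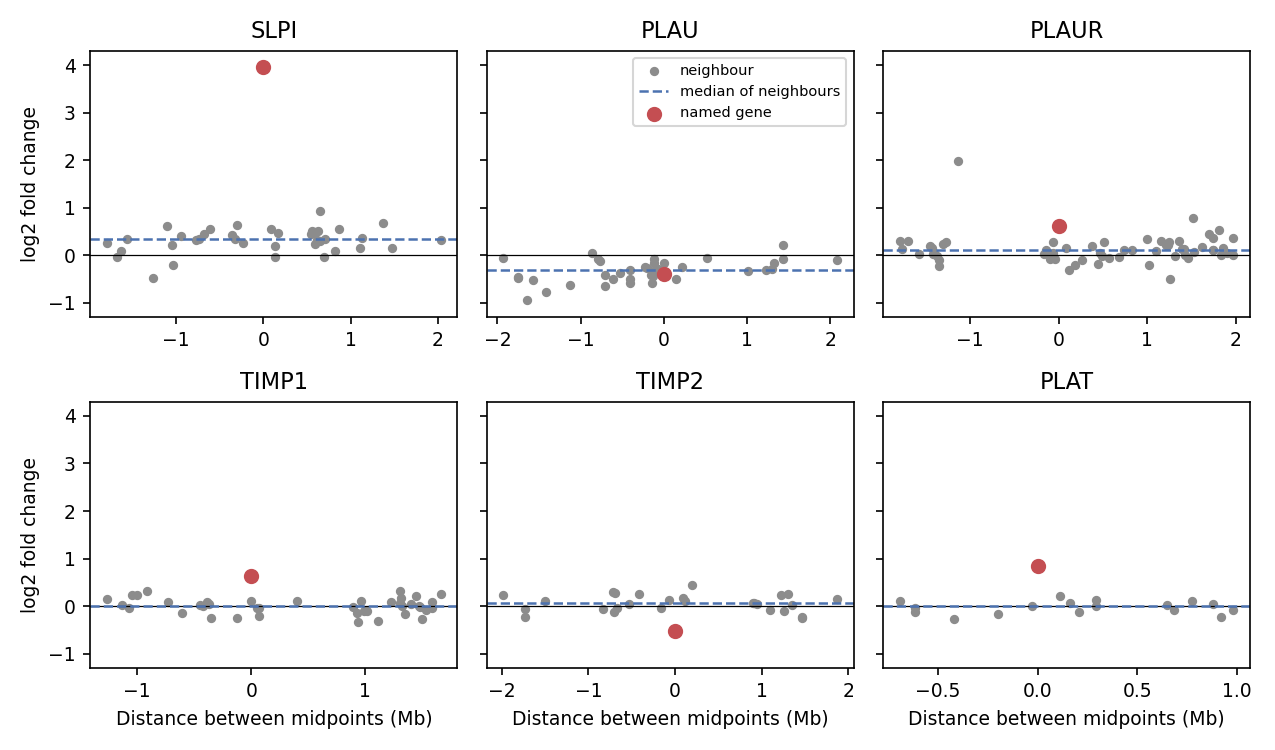
Log2 fold change of 6 genes (red) and of their neighbours within 2 Mb (grey) against the distance between midpoints in Mb, with the median of the neighbours as a dashed line. PLAU sits among its neighbours, whereas TIMP1, PLAT and SLPI lie above and TIMP2 below all of theirs.

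TIMP1, TIMP2 and PLAT lay outside the range of their neighbours within 2 Mb, and also within 1 Mb. Within 5 Mb, TIMP1 and PLAT were still above each of 46 and 35 neighbours. TIMP2 was then below 124 of 126 neighbours and above 2, the lowest at -1.59. The counts that follow are for 2 Mb. TIMP1 (chromosome X) was above each of its 41 neighbours, whose median was -0.0013. TIMP2 (chromosome 17, 78852977 to 78925390) was below each of its 27 neighbours, with a median of 0.056. PLAT (chromosome 8, 42174718 to 42207676) was above each of its 17 neighbours, with a median of -0.0072. PLAUR (chromosome 19, 43646095 to 43670346) was above 58 of 60 neighbours, with a median of 0.11. RECK (chromosome 9, 36036913 to 36124455) was above 9 and below 40 of its 49 neighbours, and SERPINE2 (chromosome 2, 223975048 to 224039319) was above 3 and below 4 of its 7. Of the 8 genes, 2 share their deposited position with another gene, so reads may be divided between them. TIMP1 is listed from 47561100 to 47619857 together with the kinase gene ARAF, which was at 19.6 and 21.1 FPKM, whereas the TIMP1 gene itself runs from 47582313 to 47586789 in GENCODE release 29. PLAU shares its position with C10orf55, at 1.40 and 1.199 FPKM. Whether strand was used in counting is not given in the sources used here, and how reads were divided was not tested.

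Among 28 other protease inhibitors, 15 were listed and 13 kept. Of these, 4 (beside 2.24% of all genes kept) were at least 1.5-fold higher and none (beside 1.45%) 1.5-fold lower, with a median of 0.25. The higher genes were the elastase inhibitor alpha-1-antitrypsin (SERPINA1, 9.76 and 20.9 FPKM), the thrombin inhibitor heparin cofactor II (SERPIND1, 0.332 and 1.03 FPKM), SERPINB8 (7.06 and 11.1 FPKM) and the cystatin CST6 (0.602 and 1.19 FPKM). SERPIND1 passed the filter only through its INAVA value. SERPIND1 and CST6 are not kept at a mean of 1 FPKM, which leaves 2 genes past 1.5-fold. SERPINB1, another inhibitor of neutrophil elastase, was at 9.55 and 7.17 FPKM, a log2 fold change of -0.39. SERPINA1 is placed by the table on an alternate contig of chromosome 14, where reads may be divided with the main copy of the gene. The most abundant of the list, PEBP1 (141 and 154 FPKM), CST3 (76.8 and 105 FPKM) and CSTB (76.8 and 74.99 FPKM), did not reach 1.5-fold. Among 17 surface partners of TIMPs and plasminogen activators, 13 were listed and kept. The tetraspanin CD82, at 41.4 and 89.0 FPKM with a log2 fold change of 1.09, was the only one at least 1.5-fold higher. None was 1.5-fold lower, and the median was 0.052. Over all genes kept, 2.24% were at least 1.5-fold higher and 1.45% lower. CD63, a tetraspanin that binds TIMP1, was at 207 and 244 FPKM, and the integrin chains ITGB1 and ITGA3 at 504 and 573 FPKM and at 199 and 189 FPKM.

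**Figure D4:**
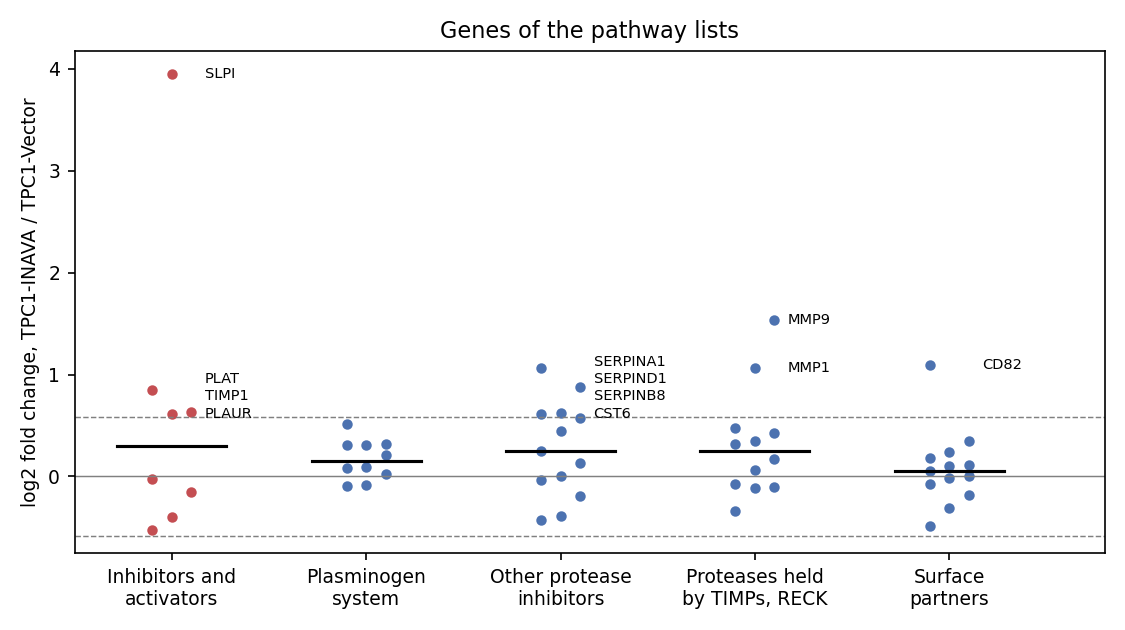
Log2 fold change, TPC1-INAVA over TPC1-Vector with 0.5 added to each FPKM, of the genes kept from each list, with the median as a bar, dashed lines at 1.5-fold and the genes past 1.5-fold named. Each point is 1 gene without error. No gene of these lists reached 1.5-fold lower, and SLPI had the largest value shown.

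Markers of other cells were low. Of 7 leukocyte markers 3 are listed, with a summed level of 6.95 FPKM in the vector cells and 9.85 FPKM in the INAVA cells, nearly all from CD68 (5.76 and 8.67 FPKM), and the defining genes PTPRC, CD3E and MS4A1 are not listed. Of 7 fibroblast markers 3 are listed, at 3.56 and 2.19 FPKM in sum, and of 5 endothelial markers only TEK is listed, at 0.460 and 0.359 FPKM. TPC1 is an established cell line, and the source of these marker values was not tested.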

How the data were processed

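RNA of 4 TPC1 libraries, 2 per group, was measured. The submitters' processing notes name CASAVA, Cufflinks 2.1.1, Cuffdiff and hg38. The aligner and the annotation are not given in the sources used here. Library kits differ between sources, NEBNext Ultra in the labels and VAHTS in the study's methods. The authors deposited 1 FPKM value per gene and group, with the libraries combined. Columns with the authors' own log2 ratio, direction, p-value and q-value were not used. Depth per library is unknown.

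The comparison of libraries planned with limma could not be made with 1 value per group, so genes are described by differences of log2(FPKM + 0.5), a mean of at least 0.5 FPKM and a fold of 1.5. The deposited starts count from 0, and 1 was added. The RefSeq start equalled the deposited start plus 1 for 2598 of 11670 genes and the deposited start itself for 313. Named are the 9 genes, INAVA, MMP9, MMP2, MMP14, GAPDH (3107 and 2947 FPKM), genes sharing a position with them, and of each pathway list the genes past 1.5-fold and the 3 most abundant. Any other gene was picked with its values in view. The genes and lists were chosen with earlier results of these data known. Alternatives were pseudocounts of 0, 0.1 and 1, no filter, a mean of 1 FPKM, median-of-ratios scaling, quantile normalization, a lower fold (0.32 on the log2 scale) and a fold of 2, and windows of 1 and 5 Mb. Scripts were tested on simulated data (Python 3.11.15, numpy 2.4.6, pandas 2.3.3, matplotlib 3.10.9).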

Additional observations from a re-analysis of the deposited data

How the results depend on the processing

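No paired analysis was possible because the table holds 1 value per group. For the same reason limma, the replicate block and the fits without each library were not run. Each of the 8 genes kept its direction and its side of 1.5-fold under 7 alternatives of pseudocount, filter and scaling. Over these, SLPI ranged from 3.21 to 5.91, PLAT from 0.72 to 1.04, TIMP1 from 0.59 to 0.63, PLAUR from 0.60 to 0.62, TIMP2 from -0.56 to -0.52 and PLAU from -0.44 to -0.40. TIMP1 and PLAUR were closest to the threshold of 0.58. At a fold of 2 only 1 gene of the set was higher, SLPI (0.610% of all genes kept), and PLAT reaches 2-fold only without a pseudocount. At the lower fold (0.32 on the log2 scale), 2 genes were lower, TIMP2 and PLAU, as were 6.74% of all genes kept, and 7.69% were higher. Of the plasminogen system, 1 gene, SERPINI1, passed 1.5-fold with a pseudocount of 0.1 and with none. At these settings 3.06% and 3.34% of all genes kept were at least 1.5-fold higher. At a mean of at least 1 FPKM, 2 other protease inhibitors passed and 0 of the metalloproteinase and ADAM list, because MMP9, MMP1, SERPIND1 and CST6 fall under that filter.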

Other observations

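Epithelial markers, which are no part of the protease system, differed in both directions. KRT8 was at 23.4 FPKM in the vector cells and 10.5 FPKM in the INAVA cells, and its usual partner KRT18, listed at the same position, at 140 and 212 FPKM. The tight junction gene CLDN1 was at 84.2 and 48.5 FPKM. KRT7 was level, at 1.97 and 2.01 FPKM. Of 7 such markers 4 are listed, with 1 at least 1.5-fold higher and 2 at least 1.5-fold lower. Over all genes kept, 2.24% were higher and 1.45% lower by that fold. CDH1, EPCAM and KRT19 are not listed.

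The genes near PLAUR with a larger log2 fold change were LOC101930071 (0.383 and 2.98 FPKM) and TRAPPC6A (1.08 and 2.21 FPKM), both much weaker than PLAUR. Near SLPI, TOMM34 was at 45.4 and 70.7 FPKM and PIGT at 29.3 and 40.5 FPKM.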
